A study of Mus musculus with 36 samples.

Results

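Mouse intestinal organoids, epithelial mini-organs grown in gel, were cultured for 24 h with an antagonist of the retinoid X receptors (RXR; the treatment is called RXRi, 5 µM, and its compound name is not given in the labels) or with DMSO as the control. The comparison is described here across all genes. Its members are the 8 RNA-seq libraries whose labels name RXRi or DMSO at 24 h, 4 of each, out of 36 libraries in the series. All cultures came from male wild-type C57BL/6 littermates of 8 weeks; 2 mice gave 1 organoid culture each, and RNA was purified in duplicate from each culture and condition. Cells were seeded singly and kept until day 3 in medium with EGF, Noggin and R-spondin, a Wnt3a-conditioned medium, the ROCK inhibitor Y-27632 and the GSK3 inhibitor CHIR99021. At day 3 the last 3 additions were withdrawn and the compounds were given, so RXRi and DMSO cultures share that change of medium. The other groups of the series are untreated cultures at 0 h, RXRi and DMSO at 6 h, and all-trans retinoic acid (atRA, 10 µM) and 9-cis retinoic acid (9cisRA, 10 µM) at 6 h and 24 h. RNA was prepared from 3 pooled wells, and levels are given as RPKM, reads scaled to gene length in kilobases and to library depth, as in the authors' deposited table.

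RXRs are nuclear receptors that bind DNA as heterodimers with partner receptors. The partners include the retinoic acid receptors (RAR), the fatty acid sensors PPAR, the oxysterol sensors LXR, the bile acid sensor FXR, the vitamin D receptor VDR, and the xenobiotic sensors PXR and CAR. In the small intestine, retinoid signalling is known for its part in the maturation of absorptive cells, and the partner receptors set the expression of genes for lipid transport, bile acid transport and drug metabolism. RXR is thus shared between several pathways.

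Epithelial genes were high in every one of the 8 libraries. Epcam lay between 445 and 511 RPKM with DMSO and between 355 and 376 with RXRi, and the villus gene Vil1 between 474 and 507 and between 390 and 433. Cdx2, the intestinal homeobox factor, lay between 60.6 and 65.5 RPKM with DMSO and between 35.9 and 40.8 with RXRi. The epithelial genes Cdh1 and Krt8 went the other way. Cdh1 lay between 287 and 313 RPKM with DMSO and between 390 and 394 with RXRi. Krt8 lay between 3212 and 3661 RPKM with DMSO and between 6718 and 6999.6 with RXRi. Of 15 fibroblast and smooth muscle markers 4 were in the table, and their summed level was 2.29 to 3.61 RPKM with DMSO and 2.53 to 2.97 with RXRi. Of 15 immune markers 6 were in the table, with sums of 19.1 to 26.0 and 14.2 to 16.9 RPKM. No matched marker of either list was at 0 in all libraries, and the part of such cells in the results was not tested. RNA from a whole culture was measured, so fewer cells of a type and less RNA per cell cannot be told apart in any result that follows. The 8 libraries held about 25528500 to 30689300 reads over the genes of the table, and 1 read of a 2000-base gene was worth 0.0173 to 0.0198 RPKM. Duplicates correlated at 0.997 to 0.998 across genes on the log2 scale, the 2 mice of a group at 0.994 to 0.996, and RXRi with DMSO at 0.931 to 0.934.

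Of 11361 genes tested with limma on log2(RPKM + 0.5), 6987 differed between RXRi and DMSO at 24 h at an adjusted p below 0.05, which is 61.5% of the genes; 3535 rose (31.1%) and 3452 fell (30.4%). The falls were larger than the rises. Among the genes that changed at least 2-fold (965, 8.49%), 677 fell (5.96%) and 288 rose (2.53%), and 143 fell at least 8-fold where 7 rose as much. The median change over all genes was 0.000757 on the log2 scale, and a gene list in which near 31.1% rose and 30.4% fell does not stand apart from the rest. Log2 differences carry the added 0.5 RPKM and understate the change of genes near or below it. All 965 genes past 2-fold changed the same way in both mice, and so did 6983 of the 6987. The log2 differences of the 2 mice correlated at 0.970 across genes, which are not independent replicates. The model holds the mouse as a block and averages duplicates, so its p-values rest on 2 mice per group and 8 residual degrees of freedom across the series.

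**Figure D1:**
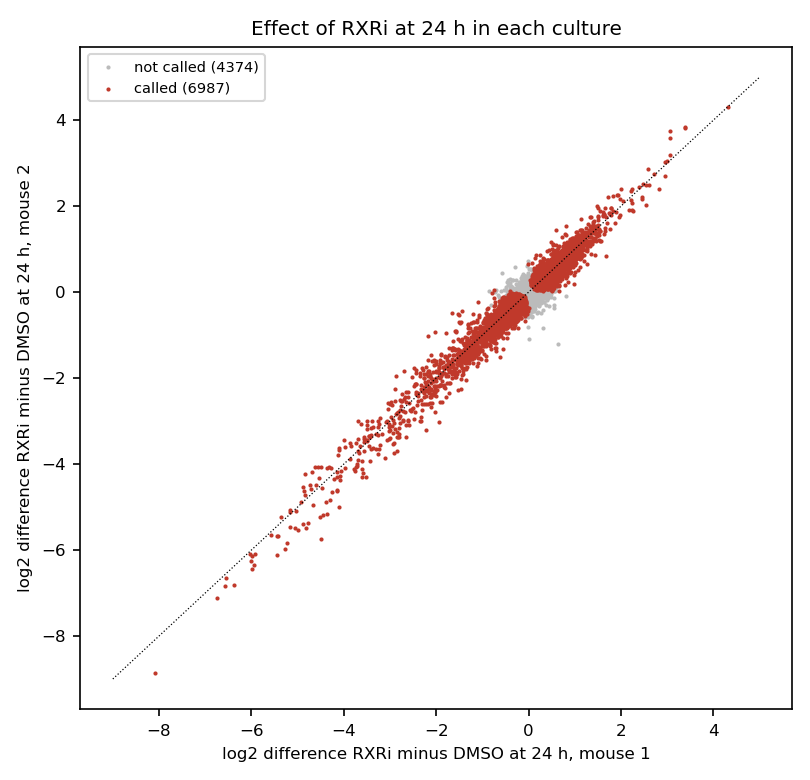
Log2 difference between RXRi and DMSO at 24 h in mouse 1 (horizontal axis) against mouse 2 (vertical axis), one point for each of 11361 tested genes, with the 6987 called genes in red and the rest in grey. The points follow the diagonal, and they reach about 8 units below 0 but only about 4 above it.

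Of 6 retinoid receptor genes listed, 4 were in the table, and Rarb was not. Of the RXR genes, Rxra and Rxrb were measured and changed little. Below, 4 values for a group are the duplicates of mouse 1 and then those of mouse 2; ± is the SD over the 2 mice after an RPKM and the SE of the fit after a log2 difference. Rxra was at 15.8, 16.2, 16.9 and 18.3 RPKM in the 4 DMSO libraries and at 12.7, 12.9, 13.5 and 13.4 in the RXRi libraries, so the groups did not overlap (as for 31.2% of genes that were higher and 29.8% that were lower with RXRi), and it fell by 0.34 ± 0.06 (SE) on the log2 scale (adjusted p = 1.76e-04). Rxrb was at 16.5 and 15.7 RPKM on average with overlapping libraries (log2 difference -0.06 ± 0.08, adjusted p = 0.514). Among the RAR genes, Rarg was at 3.81, 3.81, 4.02 and 4.08 RPKM with DMSO and 7.39, 6.92, 7.61 and 8.27 with RXRi, without overlap, and rose by 0.86 ± 0.08 on the log2 scale (adjusted p = 6.42e-07). Rara did not pass the test (7.01 and 7.25 RPKM, log2 difference 0.05 ± 0.06, adjusted p = 0.533).

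Of 13 genes for partner receptors, 7 fell and 5 rose (of all genes 30.4% fell and 31.1% rose), with a median log2 change of -0.72. The 4 with the smallest p all fell. Vdr, the vitamin D receptor, was at 23.1, 25, 31.1 and 31.4 RPKM with DMSO and at 2.91, 3.27, 4.02 and 3.66 with RXRi, and every DMSO library lay above every RXRi library (log2 difference -2.82 ± 0.16, adjusted p = 3.59e-09). Nr1i2, which encodes PXR, went from 34.4 ± 0.873 to 9.93 ± 0.687 RPKM (n = 2 mice; log2 difference -1.74 ± 0.05, adjusted p = 7.14e-12). Nr1i3, which encodes CAR, went from 16.7 ± 1.88 to 3.10 ± 0.352 RPKM (-2.26 ± 0.08, adjusted p = 7.87e-11). Nr1h3, which encodes LXR alpha, went from 7.60 ± 2.03 to 1.2 ± 0.204 RPKM (-2.24 ± 0.13, adjusted p = 7.80e-09). These levels per length put PXR above CAR and CAR above LXR alpha in both groups.

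Genes known to respond to retinoic acid were mostly lower. Of 9 tested members of that list 6 fell and 2 rose, with a median log2 change of -0.98 against 0.000757 over all genes. Tgm2, the tissue transglutaminase and a classical RAR target, was at 6.70, 6.19, 6.01 and 6.62 RPKM with DMSO and 0.750, 0.830, 0.772 and 0.879 with RXRi (log2 difference -2.40 ± 0.07, adjusted p = 6.62e-12). All 4 RXRi libraries lay below 1 RPKM and all DMSO libraries above 6. Dhrs3, a retinaldehyde reductase induced by retinoic acid, was at 26.7, 27.5, 30.6 and 32.3 RPKM with DMSO and 5.86, 5.44, 8.64 and 8.26 with RXRi (-2.0 ± 0.10, adjusted p = 8.20e-10). Isx, the intestinal homeobox factor that restrains carotenoid uptake, was at 118, 122, 134 and 145 RPKM with DMSO and 52.0, 47.1, 78.4 and 76.6 with RXRi (-1.06 ± 0.10, adjusted p = 1.05e-06). The groups did not overlap for either gene, and mouse 2 was the higher of the mice with both treatments. Cyp26b1, a retinoic acid hydroxylase, was near the limit of detection, at 0.194, 0.222, 0.337 and 0.374 RPKM with DMSO and 0.0146, 0.00685, 0.0335 and 0 with RXRi. Its log2 difference of -0.60 ± 0.12 passed the test (adjusted p = 7.78e-04) but not after quantile normalization (adjusted p = 0.504).

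Genes that take up, store and oxidise retinol fell in 18 of 23 cases and rose in 5, with a median of -1.30 on the log2 scale. The lowest value on the list was -5.27, and the members described are those with the smallest p. Adh1, an alcohol dehydrogenase that oxidises retinol, was at 573, 579.6, 806 and 891 RPKM with DMSO and 20.8, 27.9, 61.4 and 41.2 with RXRi (18.8-fold lower in the means; log2 difference -4.31 ± 0.17, adjusted p = 1.21e-10). Aldh1a1, which makes retinoic acid from retinaldehyde, went from 279.7 ± 43.5 to 29.4 ± 7.86 RPKM (-3.25 ± 0.12, adjusted p = 6.42e-11). Its relative Aldh1a7 went from 47.1 ± 6.78 to 5.34 ± 1.05 RPKM (-3.03 ± 0.08), and Bco2, a carotenoid-cleaving oxygenase, from 37.5 ± 5.64 to 2.92 ± 0.654 RPKM (-3.48 ± 0.13). For these 4 genes the DMSO level at 24 h was itself well above that at 0 h (22.6, 34.2, 6.73 and 3.47 RPKM).

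Targets of the xenobiotic receptors PXR and CAR had the lowest median of the receptors' target lists. All 20 were tested; 18 fell, 0 rose, 15 fell at least 2-fold, and the median log2 change was -2.07. Cyp3a11, the main drug-metabolising P450 of mouse gut, was at 113, 109, 136 and 149.8 RPKM in the DMSO libraries and at 0.585, 0.512, 0.570 and 0.507 in the RXRi libraries. That is 234-fold lower in the means, with a log2 difference of -6.92 ± 0.25 (adjusted p = 5.97e-11). Cyp3a25, a neighbour of the same family, was at 62.2, 60.1, 74.7 and 82.4 RPKM with DMSO and 0.155, 0.145, 0.265 and 0.121 with RXRi (-6.70 ± 0.19, adjusted p = 6.25e-12). Cyp2b10, the classical CAR target, was at 323, 335, 354 and 387 RPKM with DMSO and 6.02, 6.77, 7.87 and 6.03 with RXRi (-5.61 ± 0.18, adjusted p = 1.60e-11). For all 3 genes the lowest DMSO library was more than 40 times the highest RXRi library. Reads of near-identical Cyp3a genes may be split between them in ways that the deposited table does not show.

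The sequences before the starts of these 3 P450 genes are shown because receptors that pair with RXR are known to bind the element AGGTCA and its spaced repeats. They are RefSeq windows on GRCm38.p6, printed 5′ to 3′ on the gene's strand from 250 bases before the RefSeq start up to the first annotated exon, with matches to AGGTCA on either strand in capitals. Cyp3a11 is at chr5:145879965-145880104 (minus strand), Cyp3a25 at chr5:146009619-146009868 (minus strand) and Cyp2b10 at chr7:25897408-25897619 (plus strand).
Cyp3a11: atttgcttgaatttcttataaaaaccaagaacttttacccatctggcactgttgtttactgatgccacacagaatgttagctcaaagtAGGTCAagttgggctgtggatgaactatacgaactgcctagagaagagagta
Cyp3a25: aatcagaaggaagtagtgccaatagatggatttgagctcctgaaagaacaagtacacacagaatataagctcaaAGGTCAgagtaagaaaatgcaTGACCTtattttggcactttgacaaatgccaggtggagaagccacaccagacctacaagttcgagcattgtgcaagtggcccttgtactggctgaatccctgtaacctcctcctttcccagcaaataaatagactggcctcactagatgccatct
Cyp2b10: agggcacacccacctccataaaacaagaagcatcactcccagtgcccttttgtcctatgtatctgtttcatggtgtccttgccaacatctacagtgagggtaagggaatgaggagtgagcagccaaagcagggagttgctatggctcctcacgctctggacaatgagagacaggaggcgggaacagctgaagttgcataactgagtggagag
Cyp3a11 had 1 match, whose first base lies at -162 from the RefSeq start. Cyp3a25 had 2, at -176 on the gene's strand and at -155 on the opposite strand (TGACCT), and Cyp2b10 had 0. In windows of 300 bases (250 before and 50 after the start), AGGTCA was found in 16.3% of 32851 RefSeq windows, and its direct repeat with 1 spacer base in 0.0396%; the repeat was in none of these 3 windows. Counted by gene, 7 of the 20 PXR and CAR targets (35%) had a match, against 18.1% of 27025 genes. A match describes the letters of the window and shows no binding.

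Conjugating enzymes of drug metabolism fell with the P450s: 22 of 26 phase II genes fell and 1 rose, with a median of -1.44. Sult1b1, a sulfotransferase, went from 51.1 ± 8.49 to 0.235 ± 0.0332 RPKM (log2 difference -6.13 ± 0.12, adjusted p = 6.62e-13). Ugt2b5, a glucuronosyltransferase of a family with close copies, went from 63.7 ± 16.4 to 2.96 ± 1.60 RPKM (-4.28 ± 0.17), Ephx2, the soluble epoxide hydrolase, from 107 ± 19.2 to 21.5 ± 0.410 (-2.28 ± 0.09), and Mgst2, a microsomal glutathione transferase, from 478 ± 38.9 to 127 ± 15.0 (-1.91 ± 0.05). Among genes of the antioxidant factor NRF2, 15 of 31 fell and 6 rose, where 30.4% of all genes fell and 31.1% rose. Falls thus outnumbered rises on this list, though members moved in both directions. Gstm3 fell from 939 to 162 RPKM (-2.58 ± 0.15) and Akr1b8, an aldo-keto reductase, rose from 251 to 543 RPKM (1.11 ± 0.07).

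Of 9 tested FXR targets 8 fell and 0 rose, with a median of -0.95. With only genes of a mean of at least 5 RPKM tested, 4 fell. The basolateral bile acid exporter is made of the products of Slc51a and Slc51b. Slc51a was at 24.8, 26.9, 27.4 and 29.3 RPKM with DMSO and 1.36, 1.24, 1.79 and 1.19 with RXRi (log2 difference -3.87 ± 0.09, adjusted p = 1.53e-12). Slc51b was at 15.0, 13.2, 17.7 and 17.0 RPKM with DMSO and 0.715, 0.446, 0.653 and 0.355 with RXRi (-3.97 ± 0.24, adjusted p = 7.40e-09). Neither gene's groups overlapped. Fgf15, the hormone by which FXR in the ileum restrains bile acid synthesis in the liver, was at 5.77, 4.94, 4.38 and 4.42 RPKM with DMSO and 2.40, 2.19, 2.16 and 2.30 with RXRi (-0.95 ± 0.11, adjusted p = 5.51e-06). Fabp6, a carrier of bile acids inside ileal cells, was at 0.155, 0.0767, 0 and 0 RPKM with DMSO and 0.0760, 0.142, 0.0695 and 0 with RXRi and did not pass the test (adjusted p = 0.912).

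LXR targets fell in 11 of 14 cases and rose in 2, with a median of -0.61. Abcg5 and Abcg8, the 2 parts of the sterol exporter of the brush border, were the lowest. Abcg5 was at 53.5, 57.1, 67.5 and 71.0 RPKM with DMSO and 4.36, 4.04, 5.78 and 5.6 with RXRi (-3.53 ± 0.08, adjusted p = 1.85e-12). Abcg8 was at 33.1, 34.0, 40.2 and 42.7 RPKM with DMSO and 2.07, 2.76, 3.81 and 3.35 with RXRi (-3.46 ± 0.09, adjusted p = 2.55e-12). They are neighbours that start close together on chromosome 17, and reads where they overlap may be split between them. Npc1l1, the cholesterol importer, fell from 44.9 ± 7.09 to 15.8 ± 4.87 RPKM (-1.50 ± 0.09). Abca1, the cholesterol efflux pump, was under 1 RPKM in all 8 of these libraries (0.270, 0.427, 0.547 and 0.572 with DMSO and 0.0151, 0.0177, 0.0311 and 0.0440 with RXRi), and its log2 difference of -0.84 ± 0.11 (adjusted p = 2.21e-05) did not pass after quantile normalization (adjusted p = 0.134). Genes of cholesterol synthesis moved the other way: 19 of 25 rose and 2 fell, with a median of 0.36. Fdps, which makes farnesyl diphosphate, rose from 185 ± 4.16 to 309 ± 2.90 RPKM (0.74 ± 0.04, adjusted p = 5.49e-09), and Lss, the lanosterol synthase, from 33.0 ± 0.912 to 52.9 ± 0.0354 (0.67 ± 0.05, adjusted p = 4.09e-08).

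PPAR targets had no common direction, and their shares were near those of all genes: 13 of 36 rose and 14 fell, with a median of -0.12. Plin2, a lipid droplet coat protein, was at 144, 148, 130.4 and 136 RPKM with DMSO and 333, 359, 299 and 299 with RXRi (1.2 ± 0.07, adjusted p = 4.76e-09). Pdk4, a kinase that restrains pyruvate oxidation, was at 0.160, 0.249, 0.318 and 0.212 RPKM with DMSO and 0.797, 0.871, 0.975 and 0.944 with RXRi (0.93 ± 0.08, adjusted p = 1.72e-07). Both rose without overlap, and Cpt1a, the gate for fatty acids into mitochondria, rose from 56.2 to 80.8 RPKM (0.52 ± 0.05). Ehhadh, a peroxisomal oxidation enzyme, fell from 33.8 ± 6.48 to 12.8 ± 0.101 RPKM (-1.36 ± 0.09), Fabp2, the intestinal fatty acid binding protein, from 981 ± 195 to 399.8 ± 53.1 (-1.29 ± 0.08), and Acsl1 from 24.2 to 13.1 (-0.86 ± 0.05). VDR targets fell in 5 of 8 cases and rose in 2 (median -0.62), with 2 falls at a mean of at least 5 RPKM. Slc30a10, a manganese exporter, was at 2.12, 1.89, 1.83 and 3.02 RPKM with DMSO and 0.0198, 0.0185, 0.0181 and 0.0295 with RXRi (-2.36 ± 0.11). S100g, the calcium carrier calbindin-D9k, was at 94.0, 88.0, 70.9 and 80.8 RPKM with DMSO and 40.1, 43.4, 49.2 and 44.0 with RXRi (-0.90 ± 0.14, adjusted p = 8.44e-05).

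**Figure D2:**
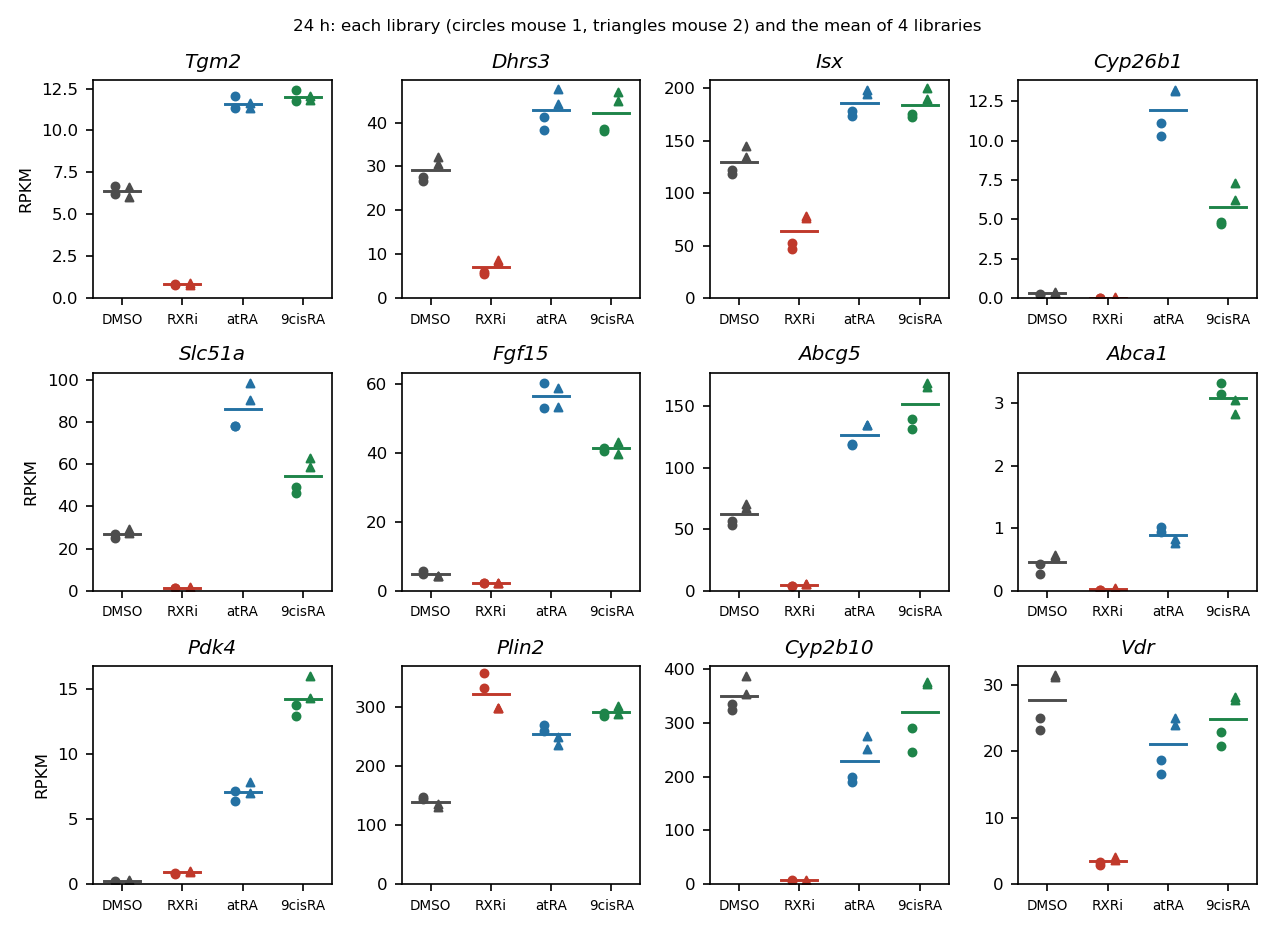
RPKM at 24 h in each library of the DMSO, RXRi, atRA and 9cisRA groups (4 libraries each, line at their mean) for 12 genes of RXR and its partners, with the doses 5 µM for RXRi and 10 µM for the retinoic acids. Tgm2, Dhrs3, Slc51a, Abcg5, Cyp2b10 and Vdr lie lowest with RXRi, while Pdk4 lies above DMSO with RXRi and higher still with both retinoic acids.

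Genes of absorptive enterocytes had the lowest median of the lists described. Of 42 tested enterocyte markers 39 fell and 2 rose, 38 fell at least 2-fold, and the median was -3.44 on the log2 scale. Alpi, the intestinal alkaline phosphatase of the brush border, was at 554, 569, 579.7 and 583 RPKM with DMSO and 35.0, 29.2, 51.0 and 42.0 with RXRi (log2 difference -3.88 ± 0.11, adjusted p = 5.26e-12). Sis, the sucrase-isomaltase that splits dietary sugars, was at 292, 288, 409.8 and 514 RPKM with DMSO and 8.53, 8.13, 15.7 and 10.8 with RXRi (-5.06 ± 0.18, adjusted p = 6.83e-11). The DMSO libraries of both genes lay more than 10-fold above the RXRi libraries, and for Sis mouse 2 was higher than mouse 1 with both treatments. Slc7a9, a part of the cystine and basic amino acid transporter, fell from 34.8 ± 4.25 to 1.45 ± 0.422 RPKM (-4.19 ± 0.09), Mep1b, a brush border metalloprotease, from 154 ± 33.9 to 9.70 ± 3.87 (-3.96 ± 0.11), and Papss2, which makes the sulfate donor, from 244 ± 52.5 to 27.6 ± 1.38 (-3.10 ± 0.08). On the log2 scale, which understates the change of genes near 0 RPKM, the lowest difference of all was that of Apoa1, an apolipoprotein of chylomicrons and HDL on chromosome 9 (46228580 to 46230466, plus strand, GRCm38). It was at 629, 557, 844 and 1061 RPKM with DMSO and at 1.69, 1.65, 2.15 and 1.05 with RXRi, 473-fold lower in the means (log2 difference -8.48 ± 0.29, adjusted p = 3.96e-11).

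Genes of lipid export, of gluconeogenesis and fructose use and of brush border structure mostly fell. Of 16 chylomicron and apolipoprotein genes 12 fell and 2 rose (median -1.91). Apoa4, a neighbour of Apoa1 and a chylomicron protein, was at 545, 495, 702 and 869 RPKM with DMSO and 5.10, 4.98, 9.25 and 5.73 with RXRi (-6.60 ± 0.23, adjusted p = 3.82e-11). Apoc2, the cofactor of lipoprotein lipase, fell from 247 ± 33.4 to 3.33 ± 0.199 RPKM (-6.01 ± 0.15); Gm44805, which overlaps it on the same strand and may take its reads, fell by 6.06 on the log2 scale. Dgat1, which makes triglyceride, fell from 157 ± 16.5 to 35.8 ± 3.65 RPKM (-2.11 ± 0.06). Of 12 genes of gluconeogenesis and fructose use 9 fell and 3 rose (median -3.12). Slc2a5, the fructose transporter, was at 24.4, 22.5, 30.3 and 34.0 RPKM with DMSO and 0.163, 0.176, 0.286 and 0.202 with RXRi (-5.31 ± 0.15, adjusted p = 5.26e-12), and Tkfc, a kinase of fructose use, was at 224 ± 46.4 and 29.0 ± 2.57 RPKM (-2.91 ± 0.10, adjusted p = 5.97e-11). Structural genes of the brush border fell in 16 of 19 cases and rose in 2, but less steeply (median -0.76). Espn, an actin bundler, fell from 3.86 ± 0.635 to 0.291 ± 0.00852 RPKM (-2.46 ± 0.10) and Myo1a, the brush border myosin, from 204 to 64.0 (-1.67 ± 0.07).

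Other genes among the 15 lowest on the log2 scale had varied functions. Ms4a18, a 4-pass membrane protein, was at 50.8, 55.6, 64.4 and 69.7 RPKM with DMSO and 0.140, 0.157, 0.102 and 0.10 with RXRi (-6.59 ± 0.13). Guca2b, the hormone uroguanylin, fell from 139.7 ± 47.1 to 1.65 ± 0.687 RPKM (-6.07 ± 0.25), Leap2, a peptide that opposes ghrelin at its receptor, from 36.9 ± 12.9 to 0.164 ± 0.0154 (-5.78 ± 0.21), and Treh, the enzyme that splits trehalose, from 26.8 ± 8.66 to 0.0365 ± 0.0152 (-5.64 ± 0.21). Adh6a (-6.22), Cyp2d26 (-6.15) and Clec2h (-5.56) complete the 15 on the log2 scale. A further 3 genes, which lie outside the rule for named genes and were chosen after their values were seen, had 0 reads in all 4 RXRi libraries. Bbox1, which makes carnitine, was at 4.32 RPKM with DMSO, at least 259-fold above the floor of 3 reads over the RXRi group; Dnase1 was at 1.93 RPKM, at least 106-fold above it, and Slc2a7 at 1.72 RPKM, at least 99.99-fold above it. The urea cycle also fell: of 13 arginine and citrulline genes 10 fell and 2 rose (median -0.56). Otc was at 23.9, 25.3, 32.1 and 37.2 RPKM with DMSO and 0.10, 0.0625, 0.183 and 0.194 with RXRi (-5.55 ± 0.17, adjusted p = 1.30e-11), and Cps1, which feeds it, fell from 50.3 ± 7.17 to 1.92 ± 0.881 RPKM (-4.44 ± 0.15).

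**Figure D3:**
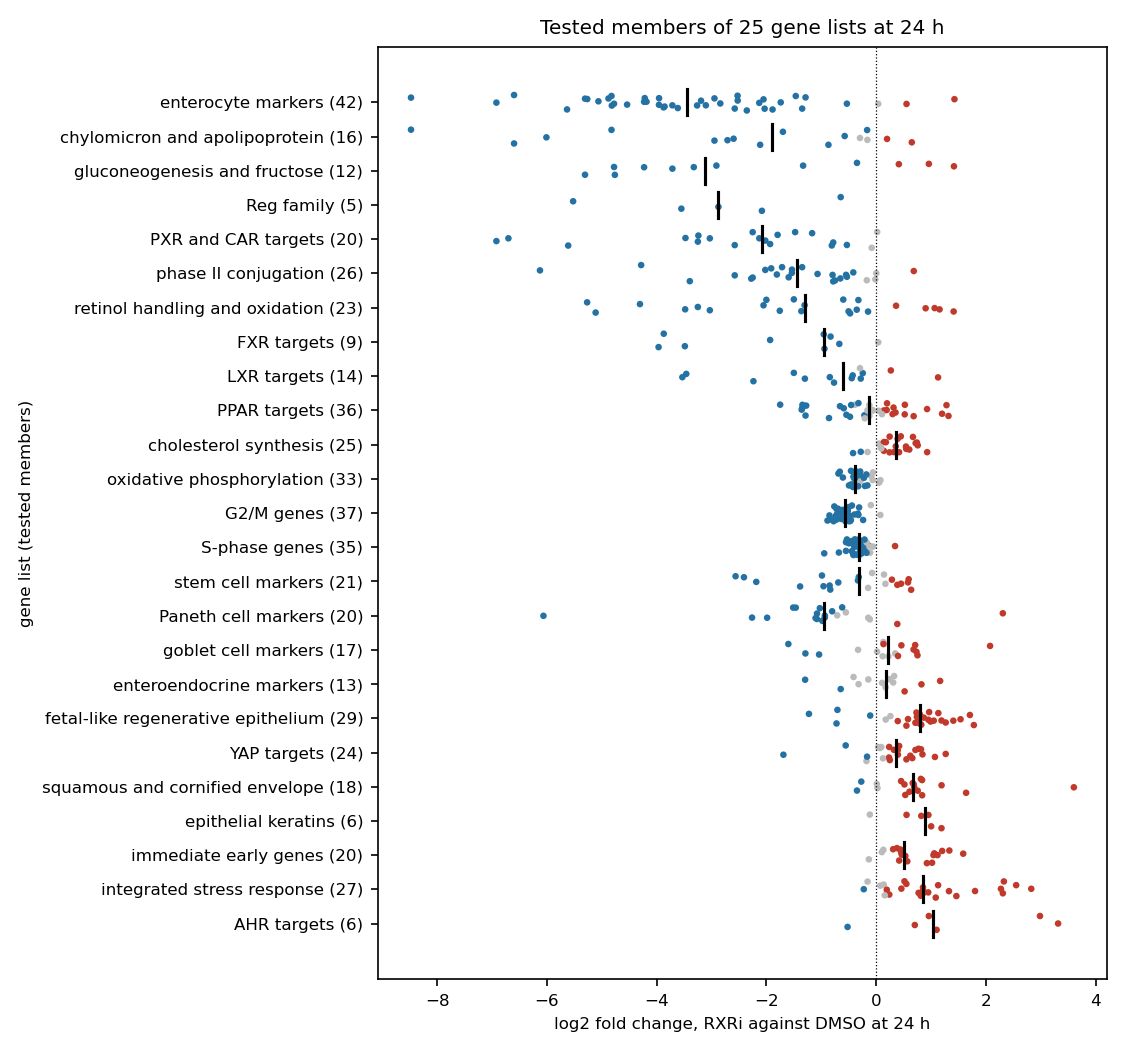
Log2 difference between RXRi and DMSO at 24 h (horizontal axis) for the tested members of 25 gene lists, one dot per gene in blue where it fell, red where it rose and grey where it did not pass the test, with a bar at the median of the list. Enterocyte markers lie farthest left, with a median of -3.44, while integrated stress response genes (0.85), keratins (0.89) and fetal-like genes (0.80) lie to the right of 0.

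All 5 tested Reg genes, secreted lectins that bind bacteria or act on epithelial growth, fell (median -2.88). Reg3g was at 30.4, 35.1, 35.3 and 37.2 RPKM with DMSO and 1.80, 2.39, 3.16 and 2.73 with RXRi (-3.55 ± 0.11, adjusted p = 1.58e-11), and Reg3b fell from 56.4 ± 20.7 to 7.12 ± 1.29 RPKM (-2.88 ± 0.14); close copies may share reads. Of 19 NF-kB and chemokine genes 14 fell and 4 rose (median -0.43). Pigr, which carries antibodies across the epithelium, fell from 237 ± 36.1 to 28.5 ± 8.43 RPKM (-3.07 ± 0.15), and Ccl25, the chemokine that draws lymphocytes to the small intestine, from 139 ± 19.2 to 4.80 ± 1.32 (-4.74 ± 0.12, adjusted p = 2.52e-12). Of 14 genes of MHC class I presentation 10 fell and 4 rose (median -0.93). H2-T3, a nonclassical class I gene of gut epithelium, fell from 15.5 ± 2.55 to 0.375 ± 0.0616 RPKM (-4.18 ± 0.10), whereas H2-D1, a classical one, rose from 157 to 267 (0.76 ± 0.05). Interferon response genes fell in 9 of 20 cases and rose in 0; 3 fell at a mean of at least 5 RPKM, and after quantile normalization 6 fell and 4 rose.

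Paneth cell markers fell in 14 of 20 cases and rose in 2, with a median of -0.96. The count of falls was 9 at a mean of at least 5 RPKM and 6 in a fit without the mouse as a block. Lyz1, the Paneth cell lysozyme, was at 29.1, 29.3, 29.1 and 31.7 RPKM with DMSO and 3.31, 5.04, 7.62 and 8.75 with RXRi (log2 difference -2.26 ± 0.20, adjusted p = 4.88e-07). The groups did not overlap, and with RXRi both libraries of mouse 1 lay below both of mouse 2. Pnliprp2, a lipase, fell from 58.3 ± 7.75 to 14.8 ± 5.51 RPKM (-1.99 ± 0.24), and Nupr1, a stress-response regulator that is also on this list, rose from 58.9 ± 6.29 to 294 ± 12.9 (2.31 ± 0.13, adjusted p = 3.29e-09). Of 21 stem cell markers 11 fell and 6 rose (median -0.32), with 6 falls and 6 rises at a mean of at least 5 RPKM. Olfm4 was at 17.7, 23.4, 19.8 and 26.2 RPKM with DMSO and 1.58, 3.40, 6.2 and 4.93 with RXRi (-2.41 ± 0.26, adjusted p = 3.36e-06), and Hopx, a marker of reserve stem cells and crypt progenitors, fell from 80.1 ± 0.546 to 17.2 ± 1.56 RPKM (-2.19 ± 0.08). Lgr5, the receptor that defines cycling crypt stem cells, was below the level needed for the test, at 0.734, 0.803, 1.05 and 1.17 RPKM with DMSO and 0.590, 0.748, 0.740 and 0.959 with RXRi, and the groups overlapped.

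Goblet and enteroendocrine markers moved in both directions. Of 17 goblet markers 8 rose and 3 fell (median 0.22), and 5 to 9 rose over all alternatives. Muc2, the gel-forming mucin, was at 3.94, 3.84, 2.69 and 3.01 RPKM with DMSO and 3.00, 4.18, 3.80 and 3.74 with RXRi and did not pass the test (0.12 ± 0.11, adjusted p = 0.384; 95% interval -0.13 to 0.36). Sytl2, an effector of granule docking, rose from 2.32 ± 0.569 to 11.3 ± 0.488 RPKM (2.08 ± 0.12), and Guca2a, guanylin, fell from 20.4 ± 6.60 to 8.36 ± 4.07 (-1.29 ± 0.15). Of 13 enteroendocrine markers 3 rose and 2 fell (1 to 5 and 1 to 3 over all alternatives). Chga, the chromogranin of most hormone cells, did not pass the test (3.72 and 4.29 RPKM, 0.17 ± 0.12, adjusted p = 0.229). Ghrl, ghrelin, rose from 2.05 ± 0.0351 to 5.47 ± 2.21 RPKM (1.17 ± 0.24, adjusted p = 8.54e-04) and Sct, secretin, fell from 2.55 to 0.745 (-1.29 ± 0.11). Only 4 of 18 tuft cell markers were tested, of which 2 rose, 0 fell and 2 did not pass the test (median 0.49). The largest rise was that of Avil, an actin severing protein. It was at 2.54, 2.23, 2.24 and 2.33 RPKM with DMSO and 15.7, 16.8, 15.4 and 14.9 with RXRi (2.51 ± 0.13, adjusted p = 2.48e-09).

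Cell cycle genes fell by small and even amounts. Of 37 genes of G2 and mitosis 35 fell and 0 rose (median -0.57), and of 35 genes of S phase 30 fell and 1 rose (median -0.32). None fell 2-fold. Mki67, the marker of cycling cells, was at 39.7, 41.5, 37.3 and 39.6 RPKM with DMSO and 26.8, 24.8, 23.5 and 24.0 with RXRi, without overlap (-0.66 ± 0.07, adjusted p = 1.28e-06). Bub1b, a spindle checkpoint kinase, fell from 22.2 to 12.7 RPKM (-0.78 ± 0.05), Birc5, survivin, from 26.3 to 15.7 (-0.72 ± 0.05), and Prim1, the primase subunit of DNA replication, from 25.1 to 15.4 (-0.68 ± 0.08). Wnt targets did not share this direction: 6 of 12 rose and 1 fell (median 0.26). Rnf43, a feedback inhibitor of Wnt receptors, rose from 15.5 to 23.6 RPKM (0.59 ± 0.06) and Cd44 from 27.1 to 40.9 (0.58 ± 0.07). Oxidative phosphorylation genes fell in 27 of 33 cases and rose in 0 (median -0.38); Sdhb, a part of succinate dehydrogenase, fell from 210.3 to 130.4 RPKM (-0.69 ± 0.05).

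The 4 highest differences on the log2 scale were those of Tff1, Ivl, Krt79 and Trim29. Tff1, a trefoil peptide made mainly by gastric surface cells, was at 35.0, 38, 35.5 and 34.9 RPKM with DMSO and at 713, 766, 723 and 697 with RXRi, 20.2-fold higher in the means (log2 difference 4.32 ± 0.10, adjusted p = 1.03e-12). It was the only member of its list of 6 tested stomach and pancreas genes to rise, and 4 fell (1 at a mean of at least 5 RPKM), among them Gkn3 (from 4.46 to 0.350 RPKM, -2.56 ± 0.19). The summed level of the 9 matched genes of that list was 55.3 to 57.5 RPKM with DMSO and 707 to 776 with RXRi, and nearly all of the increase was that of Tff1. Ivl, involucrin, a protein of the cornified envelope of skin, was at 23, 27.5, 25.3 and 25.8 RPKM with DMSO and 264, 267, 364 and 378 with RXRi (3.60 ± 0.17, adjusted p = 7.96e-10). Both genes were far above every DMSO library in all 4 RXRi libraries. Of 18 squamous and cornified envelope genes 14 rose and 2 fell (median 0.68); Lor, loricrin, rose from 1.48 ± 0.377 to 5.62 ± 0.349 RPKM (1.64 ± 0.15) and Sfn, the stratifin of keratinocytes, from 104 to 236 (1.19 ± 0.07). Krt79, a keratin of hair canal cells, was at 3.77, 4.20, 3.31 and 3.22 RPKM with DMSO and 47.2, 45.5, 49.3 and 55.7 with RXRi (3.60 ± 0.10). Trim29 went from 6.98 ± 2.93 to 75.7 ± 4.59 (3.41 ± 0.15). Ly6d, a surface protein of keratinocytes and early B cells, rose from 56.8 ± 3.79 to 378 ± 28.7 RPKM (2.72 ± 0.06), and the keratins of simple epithelia rose in 5 of 6 cases, with Krt8 from 3419.6 to 6842 RPKM (1.00 ± 0.07).

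Genes of the fetal-like state that intestinal epithelium shows in repair rose in 23 of 29 cases and fell in 4 (median 0.80). Il1rn, the interleukin 1 receptor antagonist, was at 155, 172, 144 and 145 RPKM with DMSO and 503, 503, 496 and 514 with RXRi (1.71 ± 0.07, adjusted p = 2.17e-10). Plaur, the urokinase receptor, was at 70.8, 73.4, 72.5 and 59.8 RPKM with DMSO and 198, 191, 211 and 205 with RXRi (1.54 ± 0.07, adjusted p = 5.85e-10), and Anxa2 rose from 1561 to 3416 (1.13 ± 0.05). Clu, clusterin, a marker of revival stem cells, was at 2736, 2785, 2577 and 2465 RPKM with DMSO and 4049, 4551, 4211 and 4547 with RXRi (0.72 ± 0.08, adjusted p = 3.31e-06). The groups were apart for all 4. Ly6a, the marker Sca-1, was at 348, 382, 444 and 417 RPKM with DMSO and 392.1, 415, 481 and 511 with RXRi, its groups overlapped, and it missed the threshold (0.17 ± 0.07, adjusted p = 0.057; 95% interval 0.01 to 0.34). It passed under 9 of the 39 alternatives run on the named genes. Targets of the Hippo effector YAP rose in 16 of 24 cases and fell in 3 (median 0.36). Areg, the EGF receptor ligand amphiregulin, rose from 192 to 462 RPKM (1.27 ± 0.11). Nuak2 went the other way and had the lowest value of that list, -1.69 on the log2 scale.

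Genes of the integrated stress response, which ATF4 drives when amino acids are short or translation is restrained, rose in 22 of 27 cases and fell in 1 (median 0.85), and 10 rose at least 2-fold. Chac1, a glutathione-degrading enzyme, was at 3.17, 4.01, 3.45 and 3.29 RPKM with DMSO and 24.0, 24.7, 21.3 and 21.4 with RXRi (2.55 ± 0.11, adjusted p = 2.95e-10). Vldlr, the VLDL receptor, was at 0.818, 0.876, 0.853 and 0.997 RPKM with DMSO and 10.0, 9.91, 8.72 and 8.77 with RXRi (2.83 ± 0.10, adjusted p = 7.14e-11). Aldh1l2, a mitochondrial folate enzyme, was at 0.0994, 0.0820, 0.249 and 0.231 RPKM with DMSO and 2.64, 2.80, 2.96 and 2.89 with RXRi (2.33 ± 0.10). Asns, asparagine synthetase, rose from 82.3 ± 4.81 to 159 ± 4.59 RPKM (0.95 ± 0.04, adjusted p = 6.60e-10). In these 4 genes the lowest RXRi library was above the highest DMSO library. Aminoacyl-tRNA synthetases, some of which ATF4 also drives, rose in 9 of 20 cases and fell in 2 (median 0.12), with Wars from 93.4 to 175 RPKM (0.91 ± 0.06) and Cars from 34.6 to 60.0 (0.79 ± 0.05). Chaperones of the endoplasmic reticulum did not rise with them: 8 of 24 fell, 3 rose, and the median was -0.07; P4hb, a protein disulfide isomerase, fell from 871 to 584 RPKM (-0.57 ± 0.06).

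The sequence before the Chac1 start is shown because it holds a letter match to the composite element that C/EBP and ATF proteins are known to bind, TGATGNAAN, found here on the opposite strand at -194 from the RefSeq start (GTTGCATCA, in capitals). It runs 5′ to 3′ at chr2:119350992-119351228 (plus strand, RefSeq, GRCm38.p6) and was chosen after the values were seen.
Chac1: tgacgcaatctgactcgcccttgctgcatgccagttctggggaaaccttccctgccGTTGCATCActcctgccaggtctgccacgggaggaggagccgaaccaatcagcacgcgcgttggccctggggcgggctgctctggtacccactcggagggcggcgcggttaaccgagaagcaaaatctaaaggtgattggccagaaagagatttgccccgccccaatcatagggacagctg
The element was found on either strand in 3.95% of the 32851 windows. Counted by gene, 8 of 25 stress response genes with a window held it (32%), against 4.5% of 27025 genes, and those 8 were Atf3, Chac1, Trib3, Asns, Slc7a11, Vldlr, Nupr1 and Fgf21. The match is a description of letters and no evidence of binding in these cultures.

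Targets of the aryl hydrocarbon receptor (AHR), a ligand-activated factor for planar aromatic compounds, rose in 5 of 6 cases and fell in 1 (median 1.03). Cyp1a1 was at 0.354, 0.533, 0.272 and 0.184 RPKM with DMSO and 6.47, 8.28, 8.35 and 8.00 with RXRi (23.1-fold higher in the means; log2 difference 3.32 ± 0.11, adjusted p = 2.78e-11). Cyp1b1 was at 5.10, 5.43, 3.52 and 3.75 RPKM with DMSO and 43.4, 44.6, 33.0 and 33.3 with RXRi (2.99 ± 0.15, adjusted p = 1.14e-09). Ahrr, the receptor's repressor, was at 0.218, 0.191, 0.148 and 0.155 RPKM with DMSO and 1.03, 1.08, 0.837 and 0.887 with RXRi (1.10 ± 0.09). At 0 h, before the change of medium, Cyp1a1 was at 14.9 ± 2.54 RPKM and Cyp1b1 at 27.9 ± 1.16. The log2 difference of Cyp1a1 between RXRi at 24 h and 0 h was -0.89 (adjusted p = 7.41e-06), and that between DMSO and 0 h was -4.21 (adjusted p = 5.22e-11). Tiparp rose from 6.72 to 13.6 RPKM (0.96 ± 0.08).

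Immediate early genes rose in 17 of 20 cases and fell in 0 (median 0.50). Ier3, a response gene of growth and stress signals, was at 61.9, 52.7, 44.6 and 48.2 RPKM with DMSO and 161, 163, 151 and 148 with RXRi (1.59 ± 0.11, adjusted p = 3.11e-08). Fos, a part of AP-1, was at 35.0, 36, 25.5 and 24.0 RPKM with DMSO and 87.1, 86.5, 65.0 and 66.4 with RXRi (1.33 ± 0.08, adjusted p = 1.06e-08). Both were separate between the groups, and Fos was higher in mouse 1 than in mouse 2 with both treatments. Dusp6, a feedback phosphatase of ERK, rose from 24.8 to 51.8 RPKM (1.05 ± 0.05). Glycolysis genes had no common direction (10 of 26 rose, 7 fell). Slc2a1, the glucose transporter GLUT1, was at 53.6, 54.2, 52.6 and 53.9 RPKM with DMSO and 181, 190.1, 209.5 and 206 with RXRi (1.86 ± 0.07, adjusted p = 5.98e-11), and Hk1, a hexokinase, rose from 12.3 to 34.0 RPKM (1.43 ± 0.07). Slc2a2, the basolateral transporter GLUT2 of enterocytes, fell from 33.5 ± 9.13 to 2.10 ± 0.624 RPKM (-3.71 ± 0.14), and Hkdc1, a hexokinase-like enzyme, from 34.5 to 7.82 (-2.07 ± 0.09).

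Intestinal transcription factors moved in both directions, with 6 of 23 up and 10 down (median -0.16), where 31.1% of all genes rose and 30.4% fell. Foxa3 rose from 7.01 ± 1.14 to 17.9 ± 0.126 RPKM (1.31 ± 0.09), Klf4, a factor of goblet cells and surface epithelium, from 6.57 to 15.8 (1.2 ± 0.09), and Foxa1 from 18.8 to 30.6 (0.69 ± 0.05). Maf, a factor of villus enterocytes, fell from 1.21 ± 0.0947 to 0.0696 ± 0.00308 RPKM (-1.59 ± 0.12). Of 16 claudin and tight junction genes 5 fell and 4 rose. Cldn15, which forms a cation pore of small intestine, was at 122, 119, 152 and 177 RPKM with DMSO and 3.16, 4.05, 7.66 and 5.72 with RXRi (-4.71 ± 0.13, adjusted p = 6.62e-12), and Cldn2, another pore claudin known from crypts, rose from 225 to 328 RPKM (0.54 ± 0.04). Of 15 calcium and iron genes 11 fell and 1 rose (median -1.22); Fth1, the ferritin heavy chain, fell from 1379.5 to 477 RPKM (-1.53 ± 0.06) and Tfrc, the transferrin receptor, from 28.8 to 11.9 (-1.24 ± 0.07).

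The cultures at 0 h give the level from which both groups started. With DMSO, 553 genes rose at least 2-fold from 0 h to 24 h (4.87% of genes) and 19 fell as much (0.167%; 5.03% in either direction), within 6754 called genes (59.4%; 29.2% higher). Of the 42 enterocyte markers 41 rose (median 2.51). With RXRi, 492 genes rose at least 2-fold from 0 h (4.33%) and 458 fell (4.03%), within 8048 called genes (70.8%; 36.1% higher and 34.7% lower). Of the enterocyte markers 8 rose and 30 fell (median -1.03). The enterocyte markers summed to 5889 to 6967 RPKM at 0 h, 21848 to 30456 with DMSO and 8707 to 11774 with RXRi. The sum with RXRi thus lay above that at 0 h although most members fell, since a sum follows the most abundant members. Sis went from 23.9 ± 5.36 RPKM at 0 h to 376 ± 121 with DMSO and 10.8 ± 3.48 with RXRi, and Apoa1 from 31.6 ± 0.679 to 773 ± 254 and 1.64 ± 0.0470. Genes differed in this respect: Adh1 and Papss2, at 22.6 and 27.9 RPKM at 0 h, ended at 37.8 and 27.6 with RXRi, while Cyp3a11 with RXRi differed from its level at 0 h by -3.76 on the log2 scale. Goblet markers rose from 0 h in both groups (14 of 17 with DMSO and 13 with RXRi), with Muc2 at 0.254 ± 0.0442 RPKM at 0 h.

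**Figure D4:**
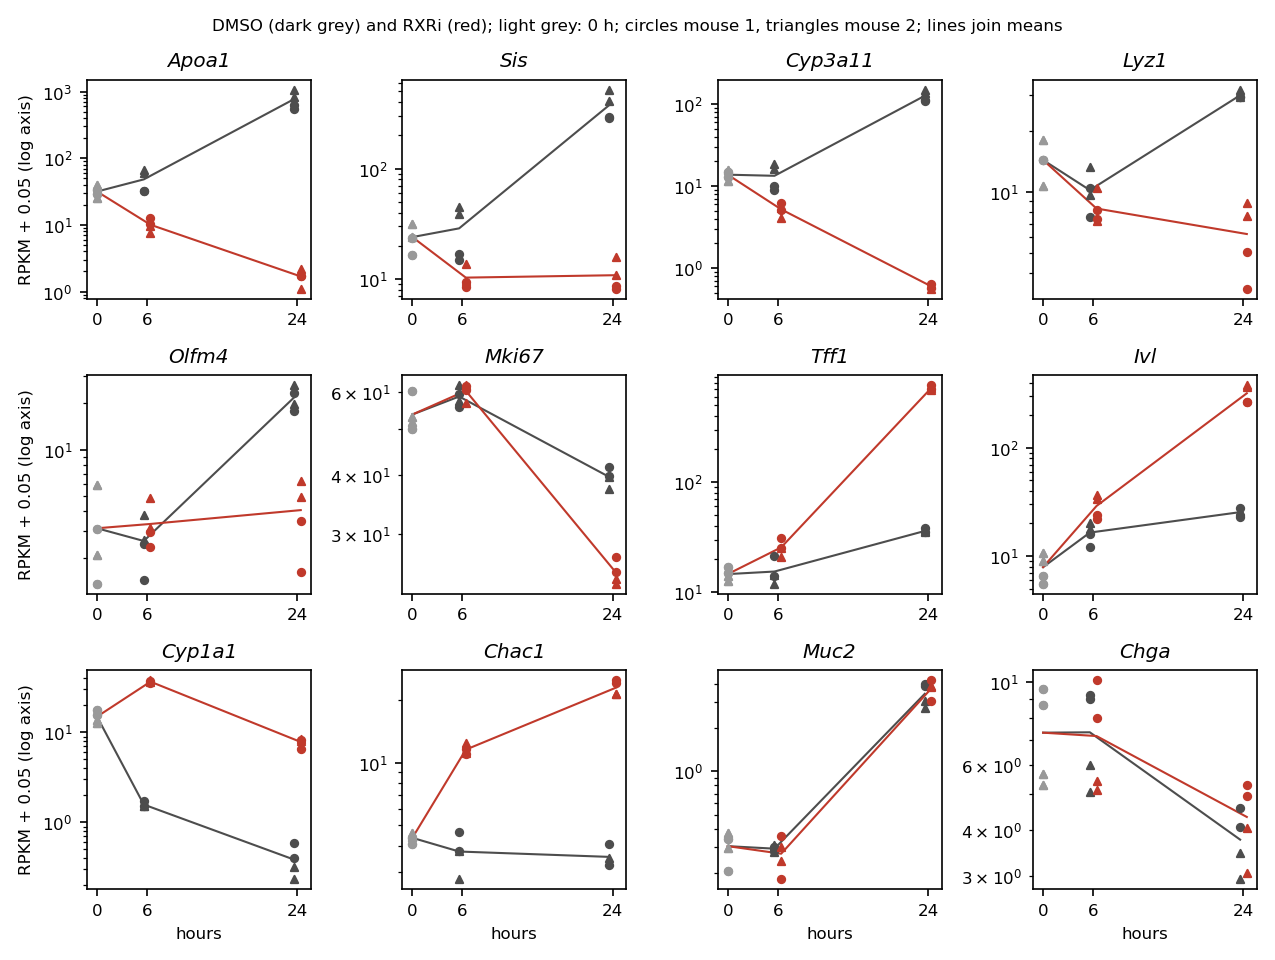
RPKM plus 0.05 on a log axis at 0 h, 6 h and 24 h for 12 genes, with DMSO in dark grey, RXRi in red, 0 h in light grey, circles for mouse 1 and triangles for mouse 2, and lines through the means. Apoa1, Sis and Cyp3a11 climb with DMSO and drop with RXRi, Tff1 and Ivl climb mainly with RXRi, and Cyp1a1 drops with DMSO, while with RXRi it is above its start at 6 h and below it at 24 h.

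At 6 h the same contrast gave 2858 called genes (25.2%), 1203 higher (10.6%) and 1655 lower (14.6%), of which 203 passed 2-fold (1.79%). A test of the change of the RXRi effect from 6 h to 24 h called 3988 genes (35.1%), 2115 toward higher (18.6%) and 1873 toward lower (16.5%), with 533 changing at least 2-fold (4.69%), 429 of them toward lower (3.78%); scaling by summed reads instead gave 1584 and 2392. Of the 677 genes that fell at least 2-fold at 24 h, 507 had already fallen at 6 h, and of the 288 that rose at least 2-fold, 201 were already higher at 6 h. A further 110 genes were called at both times with opposite signs and a change between them. Across all genes the log2 differences at 6 h and 24 h correlated at 0.765; the 6 h and 24 h groups are separate libraries of the same 2 mice.

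The lists differed in when they moved. Of the enterocyte markers 34 of 42 were already lower at 6 h (median -0.93 against -3.44 at 24 h), and the difference of 39 changed downward by 24 h. Apoa1 was at 48.2 ± 22.5 RPKM with DMSO and 10.0 ± 2.11 with RXRi at 6 h (-2.15 ± 0.29), with a further change of -6.33 ± 0.41 on the log2 scale (adjusted p = 1.86e-07). Cyp3a11 changed by a further -5.68 ± 0.35, Cyp3a25 by -5.33 ± 0.27 and Apoc2 by -5.19 ± 0.21. Of the 37 G2 and mitosis genes 1 was higher and 1 lower at 6 h, and the difference of 34 changed downward by 24 h; Mki67 did not pass the test at 6 h (0.04 ± 0.07, adjusted p = 0.712). Cholesterol synthesis genes were lower in 5 cases and higher in 1 at 6 h, and 21 of 25 changed upward after it. Of the 20 Paneth markers 1 was higher and 2 lower at 6 h, and Lyz1 did not pass the test then (-0.27 ± 0.20, adjusted p = 0.373). The AHR targets ran in the other order. All 6 were higher at 6 h (median 2.09), and Cyp1a1 was 4.19 ± 0.11 higher on the log2 scale at 6 h, 1.53 ± 0.0587 RPKM with DMSO against 36.6 ± 0.660 with RXRi, with a change of -0.87 ± 0.16 by 24 h (adjusted p = 7.23e-04).

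The largest upward changes between the times were those of Tff1 (3.58 ± 0.13), Npy (3.09 ± 0.16), Ivl (2.82 ± 0.24), Trim29 (2.17 ± 0.21) and Ly6d (2.15 ± 0.09) on the log2 scale. Npy, neuropeptide Y, was at 0.0685 ± 0.00315 RPKM with DMSO and 0.0786 ± 0.0185 with RXRi at 6 h and did not pass the test there, while at 24 h it was at 0, 0.139, 0.134 and 0.0650 with DMSO and 4.06, 4.43, 4.40 and 5.6 with RXRi (3.13 ± 0.12, adjusted p = 7.65e-11). Stress response genes were higher in 15 of 27 cases at 6 h (median 0.20) and the difference of 21 changed upward by 24 h, with Chac1 at 1.53 ± 0.11 and Vldlr at 1.68 ± 0.10 at 6 h. Isx was one of the genes whose fall was smaller at 24 h than at 6 h (-1.49 ± 0.10 at 6 h, change 0.43 ± 0.14, adjusted p = 0.0338). Rara fell at 6 h (-0.28 ± 0.06, adjusted p = 0.00458) and did not pass the test at 24 h.

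**Figure D5:**
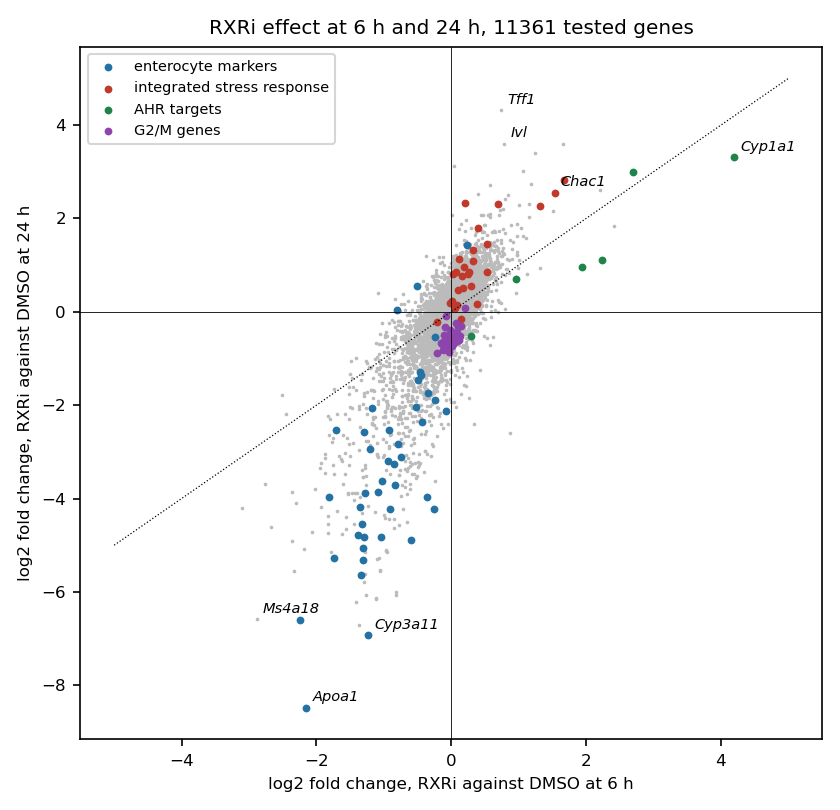
Log2 difference between RXRi and DMSO at 6 h (horizontal axis) against 24 h (vertical axis) for 11361 genes, with enterocyte, stress response, AHR and G2 or mitosis genes in colour and a dotted line where both are equal. Of the 42 enterocyte genes 39 lie below the line and 3 above it, most mitosis genes lie near 0 at 6 h and below 0 at 24 h, and the AHR genes lie below the line except Cyp1b1, which lies slightly above it.

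RXRi was also set against the receptor ligands at the same time, although at 5 µM against 10 µM, so the dose differs along with the compound. Against atRA, 6003 genes differed (52.8%), 3238 higher with RXRi (28.5%) and 2765 lower (24.3%); quantile normalization gave 4468 and 2247. Against 9cisRA, 6400 differed (56.3%), 3524 higher (31.0%) and 2876 lower (25.3%), with 4905 and 2371 after quantile normalization and 4976 and 2362 with scaling by summed reads. At least 2-fold differences numbered 971 (8.55%; 6.75% of genes lower with RXRi) against atRA and 997 (8.78%; 7.14% lower) against 9cisRA. The enterocyte markers were lower with RXRi in 39 of 42 cases against atRA and 40 against 9cisRA. Side by side with RXRi at 39.3 ± 10.2 RPKM and DMSO at 571 ± 13.7, Alpi was at 809 ± 16.3 with atRA and 911 ± 29.7 with 9cisRA. Between the retinoic acids and DMSO, members of the list went both ways. With atRA 13 of the 42 markers were higher than with DMSO and 16 lower (median log2 change -0.16, beside -0.00390 over all genes). With 9cisRA 16 were higher and 12 lower (median 0.06, beside -0.00174 over all genes). The shares of all genes called in these 2 comparisons were not taken, so these counts have no background beside them.

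The partner receptor targets show how the 4 groups lay. Slc51a was at 1.4 ± 0.135 RPKM with RXRi, 27.1 ± 1.73 with DMSO, 86.2 ± 11.4 with atRA and 54.3 ± 9.35 with 9cisRA. Abcg5 was at 4.94 ± 1.05, 62.3 ± 9.88, 127 ± 11.4 and 152 ± 22.3 RPKM in the same order, and Tgm2 at 0.807 ± 0.0252, 6.38 ± 0.0911, 11.6 ± 0.138 and 12 ± 0.115. In these 3 genes DMSO lay between RXRi and the retinoic acids. Cyp26b1 was at 11.9 ± 1.74 RPKM with atRA and 5.77 ± 1.4 with 9cisRA, and under 1 RPKM with RXRi and DMSO. Fgf15 was at 56.3 ± 0.304 RPKM with atRA and 41.3 ± 0.264 with 9cisRA against 2.26 ± 0.0454 with RXRi and 4.88 ± 0.672 with DMSO. PPAR targets, which had no common direction between RXRi and DMSO, were lower with RXRi than with atRA in 33 of 36 cases (2 higher). Against 9cisRA 33 were lower with RXRi and 0 higher. The same targets lay above DMSO with the retinoic acids. Their median log2 change against DMSO was 0.77 with atRA and 1.05 with 9cisRA, beside -0.00390 and -0.00174 over all genes. Pdk4 was at 7.08 ± 0.491 RPKM with atRA and 14.2 ± 1.26 with 9cisRA, where RXRi gave 0.897 ± 0.0887 and DMSO 0.235 ± 0.0429. Its means with all 3 compounds lay above DMSO, with RXRi the lowest of the 3.

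The means of Mki67, Olfm4, Cyp3a11, Ivl and Tff1 lay on the same side of DMSO with all 3 compounds. Mki67 was at 24.8 ± 1.46 RPKM with RXRi, 25.1 ± 0.517 with atRA and 23.5 ± 3.59 with 9cisRA, against 39.5 ± 1.52 with DMSO. The difference between RXRi and atRA did not pass the test (-0.01 ± 0.07, adjusted p = 0.878; 95% interval -0.16 to 0.13). Olfm4 was at 4.03 ± 2.17 RPKM with RXRi, 9.37 ± 2.20 with atRA, 7.68 ± 0.361 with 9cisRA and 21.8 ± 1.73 with DMSO. Cyp3a11 was at 45.0 ± 21.6 RPKM with atRA and 65.2 ± 10.9 with 9cisRA, between RXRi (0.543 ± 0.00739) and DMSO (127 ± 22.3). Ivl was at 84.5 ± 3.92 and 86.7 ± 2.07 RPKM with the retinoic acids, between DMSO (25.4 ± 0.196) and RXRi (318 ± 74.5). Tff1 was at 40.2 ± 6.02 and 52.0 ± 11.5 RPKM with the retinoic acids, near its level with DMSO (35.8 ± 0.886), and at 725 ± 20.8 with RXRi. The means of Cyp1a1 lay on opposite sides of DMSO, at 0.0485 ± 0.00581 and 0.176 ± 0.0594 RPKM with the retinoic acids, at 0.336 ± 0.153 with DMSO and at 7.78 ± 0.567 with RXRi.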

How the data were processed

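RNA was sequenced from poly(A)-selected libraries of intestinal organoids in 36 libraries (9 conditions, 2 mice, duplicate RNA preparations); 8 of them are the RXRi and DMSO libraries at 24 h. The values used are RPKM per gene as deposited by the authors. Of tools, STAR 2.5.2b and bcl2fastq 2.17 are listed in the submitters' processing notes, with mm10 as the genome build; the counting step, the annotation and the filter that left 12652 genes are not given in the sources used here. The smallest steps between RPKM values gave back whole reads for 100% of genes within 0.05 reads, which gives the depths printed; 0 columns belonged to samples of another series. Replication rests on 2 mice, and duplicates come from the same culture.

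A gene was tested where 4 or more of the 36 libraries reached 1 RPKM (11361 genes). Log2(RPKM + 0.5) was averaged over duplicates, which left 18 values, and fitted with limma 3.58.1 (R 4.3.3): a mean per condition, the mouse as a block, and moderated variances with a trend (8 residual and 5.01 prior degrees of freedom). P-values are two-sided and adjusted by Benjamini and Hochberg over all genes tested; a gene is called at an adjusted p below 0.05, and "rose" and "fell" are used of called genes. Fold ratios of means are of RPKM. Intervals are 95% intervals of the fit. The steps were checked on simulated data.

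The labels name the mouse of each library, which pairs the samples. Deviations of the same mouse with RXRi and DMSO at 24 h correlated at 0.400 across genes (median 0.441 over all pairs of conditions, 0.0372 to 0.662), and those of the same duplicate number at 0.0352.

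Members of the 52 gene lists and the comparison were chosen with earlier results of these data known; 895 of 1039 listed genes matched the table. Genes named are the 15 highest and 15 lowest log2 changes among genes called at least 2-fold that moved alike in either mouse and averaged 1 RPKM or more in 1 group, under the same conditions the 5 highest and 5 lowest changes of the effect from 6 h to 24 h, the 4 smallest p of each list, and a panel of receptor and cell type genes; others are said to be chosen after their values were seen. Some genes of these sets are not reported here. Promoter windows (250 bases before to 50 after the start) are from RefSeq on GRCm38.p6, and printed sequence stops before the first exon annotated in GENCODE. Alternatives changed the pseudocount, filter, scaling, block, handling of duplicates, samples fitted, variance trend, each library and each mouse. Scaling by summed reads and limma's voom on the recovered reads were added after the data had been seen. In the fits without 1 mouse, the duplicates of the remaining mouse stood as separate values. Calls in those fits rest on the spread between duplicates and not between mice.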

Additional observations from a re-analysis of the deposited data

Results flagged for a closer look

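Among 442 groups of 4 libraries examined for the named genes, 14 held a library far from its 3 neighbours. The rule flags about 1 in 20 groups of 4 independent values. Each group here is 2 mice in duplicate, so that rate is no measure of the number expected. With DMSO these were Cdca7 at 29.6 RPKM in the first duplicate of mouse 1, Dusp6 at 25.9, Fth1 at 1435 and Vim at 1.75 in the second duplicate of mouse 1, Gkn3 at 5.07 and Sars at 47.7 in the first duplicate of mouse 2, and Lyz1 at 31.7 in the second duplicate of mouse 2. With RXRi they were Gm44805 at 3.43 in the first and Nupr1 at 323 in the second duplicate of mouse 1, Reg3b at 9.85 and Sdhd at 197 in the first duplicate of mouse 2, and Gtse1 at 25.8, Slc25a15 at 7.99 and Slc30a10 at 0.0295 in the second duplicate of mouse 2. Each of the 8 libraries held at least 1 of them.

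In 2 named genes the effect of RXRi had opposite signs at 6 h and 24 h, and the difference passed limma's test. Cldn2 was lower at 6 h and higher at 24 h, a change of 0.80 on the log2 scale, and Wars, the tryptophanyl-tRNA synthetase, changed by 1.14 in the same direction.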

How the results depend on the processing

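Of 231 named results, 216 kept their direction and their side of the threshold under all of the 39 alternatives that could be fitted for them, 24 of which left out 1 library. With tested genes limited to a mean of at least 5 RPKM, the genes changed at least 2-fold fell in number to 593 for RXRi against DMSO at 24 h, 313 for the change from 6 h to 24 h, 598 against atRA and 619 against 9cisRA, and the lower FXR targets and Paneth markers to 4 and 9; fewer genes are tested there. Without the replicate block, 6377 genes were called (3241 higher and 3136 lower) and 6 Paneth markers were lower, as against 14. Over all alternatives the called genes ranged from 5149 to 7537.

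A sign change was seen in 7 named genes, of which Csf1r was called in the reported fit (0.156 after quantile normalization). Without mouse 2, Muc2 was at -0.117, Plcg2 at 0.151, Rara at -0.0297, Fabp6 at -0.0151 and Acta2 at -0.0128; without mouse 1, Vim was at 0.116. Acta2 was at -0.00547 with scaling by summed reads, and Vim at 0.108 after quantile normalization. With single libraries left out, Acta2 ranged from -0.0892 to 0.142, Fabp6 from -0.00755 to 0.0863, and Vim from -0.206 to 0.0700. Calls were lost for Abca1, Csf1r, Cyp26b1 and Ifit1 after quantile normalization and Reg4 without the replicate block, and gained in some settings for Anxa1, Ly6a and Ltc4s. The calls of Hes6, Muc2 and Plcg2 changed only without mouse 1, where duplicates of 1 culture are the only replicates. The cause of these changes was not tested.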

Other observations

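The 4 genes of the highest 15 not described above were chosen for the size of their rise. Each lay higher in all 4 RXRi libraries than in any DMSO library at 24 h, as did 31.2% of all tested genes. Mal, a membrane protein of apical sorting, was at 13.1 ± 1.33 RPKM with DMSO and 109.6 ± 7.64 with RXRi (SD, n = 2 mice; limma log2 difference 3.01 ± 0.17, adjusted p = 3.42e-09). Acsbg1, an acyl-CoA synthetase, was at 5.38 ± 0.926 and 38.6 ± 5.74 RPKM (2.73 ± 0.11, adjusted p = 1.39e-10), and Adm2, a peptide hormone, at 1.39 ± 0.0546 and 10.1 ± 0.0881 (2.5 ± 0.11, adjusted p = 3.21e-10). Aqp3, a channel for water and glycerol, was at 1.72 ± 0.570 and 12.7 ± 0.650 RPKM (2.60 ± 0.16, adjusted p = 1.01e-08), and its effect at 6 h was already 2.21 ± 0.16.

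Other parts of lipid metabolism were mixed. Of 17 genes of fatty acid synthesis 9 rose and 7 fell: Mlxipl, the carbohydrate-sensing factor ChREBP, fell from 33.9 ± 1.07 to 6.76 ± 0.0846 RPKM (-2.25 ± 0.10) and Scd1, a desaturase, from 155 ± 26.9 to 62.5 ± 6.81 (-1.30 ± 0.10), while Acly, which makes acetyl-CoA from citrate, rose from 56.0 ± 3.99 to 94.4 ± 0.130 (0.75 ± 0.06). Of 29 peroxisome genes 19 fell and 5 rose (median -0.21), with Phyh, the enzyme of phytanic acid breakdown, from 65.9 ± 12.9 to 15.9 ± 3.23 RPKM (-2.02 ± 0.08). Targets of p53 rose in 5 of 20 cases and fell in 3, both below the shares of all genes (5 and 5 with scaling by summed reads). Notch pathway genes rose in 3 of 11 cases and fell in 3; Dll1, a ligand of secretory precursors, fell from 4.55 ± 0.450 to 1.56 ± 0.318 RPKM (-1.30 ± 0.12, adjusted p = 5.69e-07).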
